A study of Mus musculus with 45 samples.

Results

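The 32 genes described here are expressed mainly by endothelial cells, the cells that line blood and lymphatic vessels. They were chosen by name and not by a cut on measured values, though with earlier results of these data known. All 32 were found among the 35272 genes of the deposited count tables. The tissue was the forelimb bud of CD1 mouse embryos at gestation day 13, a limb with cartilage, muscle precursors, skin and a first vessel network, excised and grown in bottles with no circulation. Buds received dimethyl sulfoxide (DMSO), the vehicle, or 1 or 5 µM of bisphenol AF (BPAF, a fluorinated relative of bisphenol A) for 3, 24 or 48 h, and 5 libraries were sequenced for each of these 9 groups, 45 in all. All groups shared a BGJb-based medium with ascorbic acid and gentamycin, a gas mix rich in oxygen, and pooling of limbs from embryos of both sexes. No label ties the 5 libraries of a group to separate litters or culture days. The p-values therefore rest on the spread between libraries, part of which may be technical.

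Endothelial cells hold together through junction proteins such as VE-cadherin and answer to vascular endothelial growth factors (VEGF), which act through the receptors encoded by Kdr, Flt1 and Flt4, and to angiopoietins, which act through Tek with its partner Tie1. SOXF transcription factors, apelin signalling and BMP signalling through endoglin pattern arteries, veins and sprouting tip cells. In the limb bud, vessels spread through the mesenchyme and withdraw from the cartilage condensations, and pericytes and smooth muscle cells then cover the larger ones. In whole-limb RNA, fewer endothelial cells, less RNA of a gene in each endothelial cell and more RNA from other tissue cannot be told apart.

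Library totals lay between 14901842 and 25154115 reads. Limb mesenchyme markers were measured in all comparisons (11 of 11 genes passed the filter on low counts), with a summed level of 1975 to 2601 in counts-per-million (CPM, with library sizes scaled over all 45 libraries) in DMSO libraries. In 3 libraries (DMSO 3 h replicate 3, 1 µM 3 h replicate 1 and 1 µM 48 h replicate 2) Y-linked transcripts were near 0, with a summed log2 CPM under 1 against at least 5.76 in the others, although the labels describe pooled sexes. The labels of replicate 5 at 1 µM and 3 h disagree on compound and dose, and those of replicates 1 and 2 at 1 µM and 48 h on the replicate number. Titles decided in both cases. The treatment text expands BPAF as bisphenol A, while titles and characteristics give BPAF.

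Levels of different members were compared as CPM per kilobase of the deposited gene length, which for these protein-coding genes ran from 1416 bases for Cldn5 to 16064 for Vwf. In DMSO limbs at 3 h the highest level was that of Cdh5, the gene of VE-cadherin (chromosome 8, 104101625 to 104144511, build mm10), at 26.0 ± 1.40 CPM per kilobase (SD, n = 5). It was followed by Plvap, which builds the diaphragms of fenestrae and caveolae (chromosome 8, 71497765 to 71511752), at 24.0 ± 3.22, by the tight junction gene Cldn5 at 18.9 ± 1.24, and by Aplnr, the apelin receptor (chromosome 2, 85136225 to 85139923), at 17.6 ± 0.784. Vwf, the clotting factor that endothelial cells store, was lowest at 0.378 ± 0.0545 CPM per kilobase, and the span from highest to lowest was 69.0-fold. Of the 31 pairs of neighbours in this order, 28 had overlapping libraries, so most neighbouring ranks do not differ beyond the spread. After 48 h without BPAF, Cdh5, Cldn5 and Sox18 led, Plvap stood at rank 19 and Aplnr at rank 25. Esm1 had moved from rank 24 to rank 12 and Gpihbp1 from rank 30 to rank 20.

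Promoters are shown for 4 members whose levels moved in different ways, the VEGF receptors Flt1 and Kdr, which fell in DMSO limbs between 3 and 24 h, and the tip-cell genes Apln and Esm1, which were higher at 48 than at 3 h. The 250 bases before the RefSeq start site (build GRCm38.p6) were searched on both strands for GGAAGT, a core of ETS factor sites, for AACAAT, a core of SOX sites, and for AGATAA, bound by factors of the GATA family. None of these strings contains another. Matches are in capitals, and the sequences run 5′ to 3′ on the strand of the gene. The 4 were picked after the matches had been seen.
Flt1, minus strand, chr5:147726012-147726261: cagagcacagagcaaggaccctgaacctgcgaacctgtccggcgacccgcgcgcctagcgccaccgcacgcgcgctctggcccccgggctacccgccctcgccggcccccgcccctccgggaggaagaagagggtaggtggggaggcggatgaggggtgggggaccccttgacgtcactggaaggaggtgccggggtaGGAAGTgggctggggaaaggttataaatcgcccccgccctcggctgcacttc
Kdr, minus strand, chr5:75978456-75978705: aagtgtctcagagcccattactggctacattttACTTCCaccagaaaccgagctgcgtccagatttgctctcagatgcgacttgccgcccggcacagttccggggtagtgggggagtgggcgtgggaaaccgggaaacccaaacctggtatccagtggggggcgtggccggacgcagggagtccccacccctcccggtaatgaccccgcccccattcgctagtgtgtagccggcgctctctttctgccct
Apln, minus strand, chrX:48034854-48035103: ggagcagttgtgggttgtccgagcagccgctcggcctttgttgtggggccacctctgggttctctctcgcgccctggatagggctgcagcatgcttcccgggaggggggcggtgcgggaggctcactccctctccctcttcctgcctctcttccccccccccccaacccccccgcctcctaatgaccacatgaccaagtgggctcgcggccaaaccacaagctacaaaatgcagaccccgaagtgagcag
Esm1, plus strand, chr13:113209409-113209658: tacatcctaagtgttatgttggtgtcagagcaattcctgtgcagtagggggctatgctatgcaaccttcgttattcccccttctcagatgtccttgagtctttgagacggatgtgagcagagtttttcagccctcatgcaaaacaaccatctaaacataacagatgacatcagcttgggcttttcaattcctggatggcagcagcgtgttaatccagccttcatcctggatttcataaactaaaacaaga
RefSeq promoters were matched by symbol for 16 of the 32 members, with 18 start sites, since Egfl7 has 3. GGAAGT, read on either strand, was in 7 of the 18 windows (38.9%), against 19.7% of all 32851 mouse promoter windows of this length. The 7 belonged to Egfl7 (2 of its 3 start sites), Eng, Tie1, Kdr, Flt1 and Myct1. AACAAT was in 2 member windows (11.1%, against 9.42% of all), those of Emcn and Tek, and AGATAA in 1 (5.56%, against 9.99% of all), that of Myct1. A match describes letters in the window and shows no binding. The contrast among the 4 shown members does not carry over to the others. Cd34, She, Emcn, Tek, Robo4, Flt4 and Cldn5 also fell between 3 and 24 h in DMSO limbs, without an ETS core. Tie1 and Egfl7 fell with an ETS core, and Eng and Myct1 had it without being called. A link between matches and the direction of change was not tested.

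**Figure D1:**
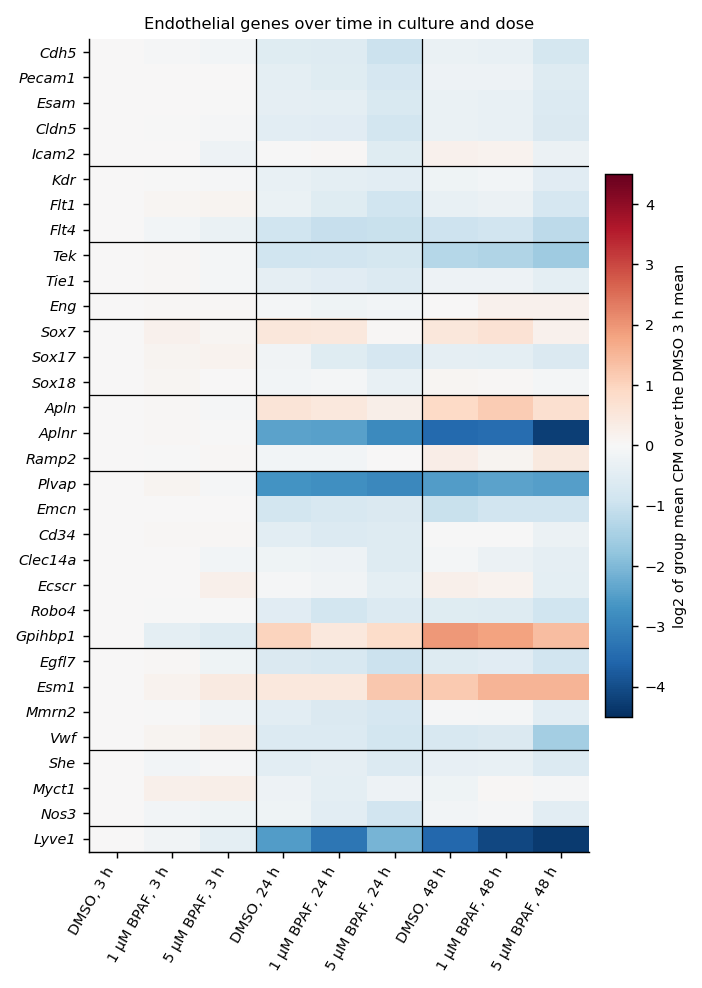
Colour gives the log2 of each group's mean CPM over the mean of the DMSO 3 h group for the 32 endothelial genes (rows, ordered by role and divided by lines) in the 9 groups (columns, 5 libraries each). Aplnr, Plvap and Lyve1 are far below their 3 h level at 24 and 48 h at every dose, while Gpihbp1, Esm1, Apln and Sox7 are above it in DMSO limbs.

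The comparison of DMSO limbs at 24 and 3 h asked how the endothelial genes changed in culture without compound. Most of them fell. Of 32 members tested 19 were lower and 3 higher (22 called). Of all 16481 genes tested 37.8% were called, 19.1% higher and 18.7% lower. A call here means that edgeR's quasi-likelihood test gave a p under 0.05 after Benjamini-Hochberg adjustment. The median log2 fold change was -0.40 over the members and -0.01 over all genes tested. The libraries of the groups did not overlap for 16 lower members and 1 higher member, while 12.6% of all genes tested were lower and 13.4% higher in this way.

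Plvap, Lyve1 and Aplnr fell furthest. Plvap stood at 44.3, 42.1, 44.9, 58.3 and 48.4 CPM in the 5 DMSO libraries at 3 h and at 6.72, 5.96, 5.402, 8.14 and 11.03 at 24 h, with all 24 h libraries below all 3 h libraries. This was a 6.39-fold fall (log2 fold change -2.68 ± 0.15, SE, n = 5 against 5, edgeR adjusted p = 3.44e-10). Aplnr, whose receptor marks veins and sprouting vessels, stood at 61.3, 66.0, 63.3, 68.8 and 66.2 CPM at 3 h and at 13.9, 10.3, 9.71, 16.9 and 10.6 at 24 h. The groups lay far apart, and the fall was 5.32-fold (log2 fold change -2.41 ± 0.12, edgeR adjusted p = 8.01e-11). Lyve1, a hyaluronan receptor of lymphatic endothelium that some macrophages also carry, was scarce from the start, with 16 to 57 reads per library at 3 h and 1 to 11 at 24 h. Its log2 fold change was -2.46 ± 0.50 (edgeR adjusted p = 0.000862), while 12 of 18 tested macrophage genes rose.

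Among junction and adhesion genes, Cdh5, Pecam1, Esam and Cldn5 were lower and Icam2, an intercellular adhesion molecule, was not called. Cdh5 stood at 102, 107, 109.6, 111 and 118 CPM at 3 h and at 73.1, 71.2, 65.3, 89.3 and 75.5 at 24 h, with no overlap (log2 fold change -0.55 ± 0.07, edgeR adjusted p = 8.77e-06). Pecam1 (chromosome 11, 106654217 to 106750628), the adhesion molecule CD31 used to stain vessels, stood at 68.3, 69.1, 69.7, 75.3 and 75.8 CPM at 3 h and at 48.9, 47.5, 53.8, 57.6 and 59.2 at 24 h, again with no overlap (log2 fold change -0.43 ± 0.07, edgeR adjusted p = 6.16e-05).

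All 3 VEGF receptor genes and both TIE receptor genes were lower. Flt4, the receptor for the lymphatic growth factor VEGF-C, stood at 21.3, 18.6, 20.9, 23.3 and 21.9 CPM at 3 h and at 10.9, 9.26, 9.83, 14.4 and 13.0 at 24 h (log2 fold change -0.89 ± 0.12, edgeR adjusted p = 1.07e-05). Tek, the angiopoietin receptor TIE2, stood at 17.1, 14.6, 18.1, 16.1 and 20.7 CPM and then at 9.16, 8.42, 10.1, 11.3 and 7.51 (log2 fold change -0.90 ± 0.12, edgeR adjusted p = 1.74e-05). The libraries of these 2 receptors did not overlap between times. Kdr, the main VEGF receptor of blood vessels, fell less, by 0.35 on the log2 scale, as did Flt1, a receptor that binds VEGF with little signalling of its own, by 0.31 and Tie1 by 0.40. The call of Flt1 was lost without DMSO 3 h replicate 5.

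Surface and secreted genes went mostly the same way. Emcn, a sialomucin of veins and capillaries, stood at 19.2, 18.6, 18.2, 27.1 and 17.8 CPM at 3 h and at 9.63, 11.04, 11.4, 11.7 and 13.2 at 24 h (log2 fold change -0.82 ± 0.12, edgeR adjusted p = 4.39e-05). Egfl7, a secreted matrix protein of vessels that guides tube formation, stood at 30.2, 24.4, 31.8, 31.7 and 29.2 CPM at 3 h and at 17.1, 18.2, 20.5, 16.3 and 21.7 at 24 h (log2 fold change -0.66 ± 0.10, edgeR adjusted p = 3.57e-05). Neither gene had overlapping groups. Cd34, Robo4, Mmrn2, Vwf and the adaptor gene She were also lower, by 0.46 to 0.61 on the log2 scale.

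The 3 members that rose have different roles. Sox7, a SOXF transcription factor, stood at 11.1, 12.04, 10.8, 12.7 and 12.8 CPM at 3 h and at 18.2, 17.4, 15.7, 18.3 and 14.7 at 24 h, with no overlap (log2 fold change 0.51 ± 0.10, edgeR adjusted p = 0.000513), while Sox17 and Sox18 were not called. Gpihbp1, which holds lipoprotein lipase on capillary walls, rose by 1.02 ± 0.27 on the log2 scale (edgeR adjusted p = 0.00693), and with the Y-linked level as a covariate its value was 0.69 (adjusted p = 0.107). That covariate also ended the calls of Flt1 (adjusted p = 0.0892) and Apln (adjusted p = 0.281) and gave one to Esm1 (adjusted p = 0.0343) in edgeR. Apln, the apelin peptide made by tip cells and the ligand of Aplnr, differed by 0.59 ± 0.22 (edgeR adjusted p = 0.0443), but its call was lost in 7 of 10 fits that left out 1 library. It stood at 6.34, 7.85, 4.82, 7.47 and 9.25 CPM at 3 h and at 7.79, 6.69, 9.60, 13.1 and 16.6 at 24 h, highest in DMSO 24 h replicates 4 and 5. The summed level of hypoxia response genes was also highest in these 2 libraries (2511 and 3634 CPM, against 1794 to 2124 in the other DMSO 24 h libraries), and its part in the Apln values was not tested.

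**Figure D2:**
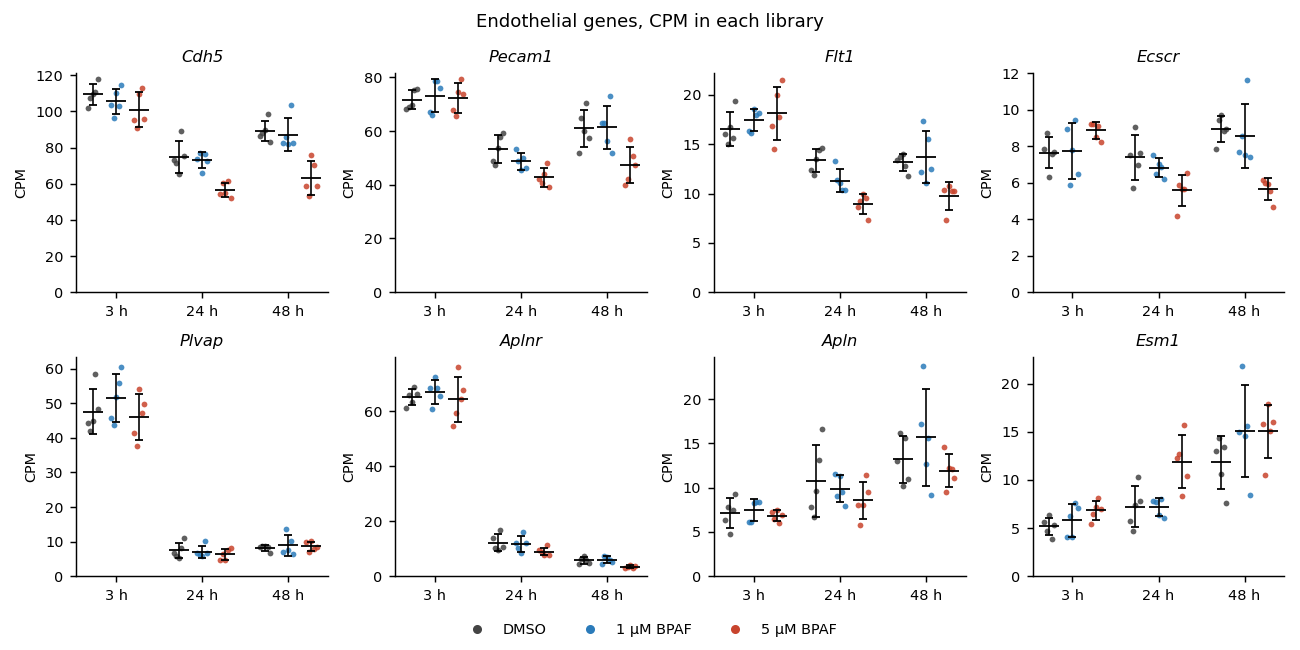
Each point is the CPM of 1 library for 8 endothelial genes, grouped by time (x axis) and dose (colour), with the group mean (bar) and SD (whiskers), n = 5 per group. Plvap and Aplnr lie between 42.1 and 68.8 CPM in DMSO libraries at 3 h and at 16.9 or less at 24 and 48 h, and Cdh5 at 24 and 48 h is lowest in the 5 µM group.

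Between 24 and 48 h in DMSO, some members rose again. Of 31 members tested 6 were higher and 1 lower (16.3% of all 16445 genes tested were called, 9.71% higher and 6.57% lower), with a median log2 fold change of 0.10 against -0.01 over all genes. Cd34, a sialomucin of capillaries and of some progenitor cells, stood at 33.1, 29.0, 37.1, 37.3 and 39.5 CPM at 24 h and at 48.1, 54.0, 42.0, 52.5 and 47.2 at 48 h, with no overlap (log2 fold change 0.46 ± 0.09, edgeR adjusted p = 0.00202). Aplnr continued to fall, from 13.9, 10.3, 9.71, 16.9 and 10.6 CPM to 4.45, 6.35, 7.51, 5.91 and 4.91 (log2 fold change -1.09 ± 0.18, edgeR adjusted p = 0.000618). These were the only members of the 31 whose groups did not overlap, 1 higher and 1 lower, against 7.55% and 4.94% of all genes.

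The other 5 members called between 24 and 48 h were Gpihbp1, Esm1, Ramp2, Mmrn2 and Cdh5. Gpihbp1 went from 3.27, 3.90, 3.16, 6.19 and 6.20 CPM to 9.82, 12.8, 6.78, 8.32 and 6.02 (log2 fold change 0.93 ± 0.24, edgeR adjusted p = 0.0132). Esm1, a secreted proteoglycan of tip cells, went from 5.77, 4.74, 7.41, 10.3 and 7.79 CPM to 13.0, 14.4, 10.7, 13.4 and 7.63 (log2 fold change 0.70 ± 0.20, edgeR adjusted p = 0.0277). The later group was higher on average for both, but their libraries overlapped. Ramp2, the partner that makes the calcitonin-like receptor bind adrenomedullin, went from 13.3, 14.7, 15.3, 14.6 and 17.1 CPM to 15.8, 24.6, 19.7, 19.9 and 19.7 (log2 fold change 0.40 ± 0.11, edgeR adjusted p = 0.0181). Mmrn2, a matrix protein that binds VEGF, went from 12.5, 13.1, 11.03, 16.1 and 16.6 CPM to 16.1, 21.1, 18.9, 19.6 and 16.6 (log2 fold change 0.40 ± 0.12, edgeR adjusted p = 0.0333). Cdh5 differed by 0.24 ± 0.08 (edgeR adjusted p = 0.0476), and its call was lost in 8 of 10 fits without 1 library, that of Mmrn2 in 6, of Esm1 in 5 and of Ramp2 in 1. With Y-linked level as a covariate 2 of the 7 calls were left, and leaving out single libraries gave 3 (without DMSO 24 h replicate 1) to 7.

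Over the whole culture, from 3 to 48 h, 18 of 32 members were lower and 5 higher (50.9% of all 16539 genes tested were called, 25.6% higher and 25.4% lower), with a median of -0.23 against -0.01 over all genes. This comparison shares its libraries with the 2 shorter ones and is given for the size of the change. Lyve1 (-3.56 ± 0.60 on the log2 scale), Aplnr (-3.49 ± 0.11) and Plvap (-2.53 ± 0.10) were furthest down, followed by Tek (-1.28 ± 0.15), Emcn and Flt4 (-0.94 ± 0.12). Gpihbp1 (1.98 ± 0.25), Esm1 (1.19 ± 0.17), Apln (0.89 ± 0.17), Sox7 (0.53 ± 0.10) and Ramp2 (0.30 ± 0.11) were up, and the libraries of the first 4 did not overlap. The call of Ramp2 was lost in 6 of 10 fits without 1 library and with the Y-linked covariate. Among the lower members 12 had separate groups, and 18.7% of all genes had them in each direction. Eng, the BMP co-receptor endoglin, differed by 0.03 ± 0.08 with a 95% interval of -0.13 to 0.19. Of the others, Cd34, Clec14a, Mmrn2, Nos3, Myct1, Sox18, Icam2 and Ecscr were not called either.

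Members also shifted against each other. As a yardstick, a member's log2 CPM was set against the mean log2 CPM of 5 pan-endothelial genes in the same library (Cdh5, Pecam1, Tie1, Esam and Clec14a, without the member itself), a description without a test. On this scale Aplnr was lower at 48 than at 3 h in DMSO by a log2 value of -3.27, Lyve1 by -3.39, Plvap by -2.29, Tek by -1.06, Emcn by -0.76 and Flt4 by -0.73. Gpihbp1 was 2.21 higher, Esm1 1.41, Apln 1.13 and Sox7 0.74. Of the 5 genes, Cdh5 (-0.29), Pecam1 (-0.23), Tie1 (-0.24) and Esam (-0.29) were themselves called lower over this time, so the yardstick fell with them. Against the median of the members at 2 CPM or more in place of the 5 genes, the shifts were -3.11 for Aplnr, -3.12 for Lyve1, -2.13 for Plvap, -0.87 for Tek, -0.58 for Emcn, -0.56 for Flt4, 2.41 for Gpihbp1, 1.60 for Esm1, 1.34 for Apln and 1.05 for Sox7. A shift near 0 depends on the yardstick. Kdr shifted by 0.02 against the 5 genes and by 0.30 against the median. On both scales the RNA of Aplnr, Plvap, Tek, Emcn and Flt4 became scarcer relative to other members. That of Gpihbp1, Esm1, Apln and Sox7 became more abundant.

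Markers of other cells moved over the same times, and 37.8% of all genes tested were called between 3 and 24 h. Erythroid genes fell between 3 and 24 h (12 of 16 tested lower, none higher), from a summed 1984 to 3110 CPM in DMSO libraries at 3 h to 1242 to 2556 at 24 h and 559 to 884 at 48 h, with none of the listed genes at 0 in these groups. Macrophage genes rose (12 of 18 tested higher, 2 lower), from 102 to 126 CPM at 3 h, where Cd163 was at 0, to 189 to 247 at 24 h and 304 to 390 at 48 h. Summed chondrocyte genes rose from 5442 to 5912 CPM at 3 h to 12240 to 14630 at 24 h and 19340 to 23850 at 48 h. Those of skeletal muscle rose from 1548 to 2033 CPM to 4395 to 5104 and 5202 to 8152. The part of all these cells in the endothelial values, which are relative to the rest of each library, was not tested.

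The next comparisons asked what BPAF did at each time. After 3 h no member was called at either dose by edgeR or by DESeq2, where edgeR called 0.18% of 16651 genes at 5 µM and 0 of 16631 genes at 1 µM. At an unadjusted p under 0.05 there were 3 members at 5 µM and 0 at 1 µM. The median over the members at 5 µM was -0.03, against 0.00 over all genes. The 3 members with the highest mean CPM over all 45 libraries show the overlap. Cdh5 stood at 95.05, 91.0, 109.6, 113 and 96.0 CPM at 5 µM, within and below the DMSO range of 102 to 118. Pecam1 stood at 67.9, 65.7, 74.7, 79.5 and 73.8 CPM and Kdr at 48.5, 53.6, 59.9, 59.0 and 53.1, both overlapping DMSO. None of the 32 members had separate groups at 5 µM (0.841% of all genes were higher and 0.883% lower in this way) or at 1 µM (0.204% and 0.265%). Between the doses at 3 h no member was called either by edgeR or DESeq2 (3 at an unadjusted p under 0.05), where edgeR called 0.036% of 16681 genes, and none had separate groups (0.54% of all genes higher, 0.593% lower).

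Lyve1, with 0 to 13 reads per library at 24 and 48 h, did not pass the filter on low counts in the BPAF comparisons at these times, which leaves 31 members. After 24 h at 5 µM, 2 of 31 members were lower and none higher (1.57% of 16433 genes tested were called, 1.1% lower). Flt1 (chromosome 5, 147561604 to 147726011) stood at 12.4, 11.9, 13.5, 14.4 and 14.6 CPM in DMSO and at 8.64, 9.24, 9.95, 9.59 and 7.29 at 5 µM. Every 5 µM library was below every DMSO library (log2 fold change -0.58 ± 0.11, edgeR adjusted p = 0.0165). Cdh5 stood at 73.1, 71.2, 65.3, 89.3 and 75.5 CPM in DMSO and at 54.3, 60.5, 54.8, 61.2 and 52.3 at 5 µM, also without overlap (log2 fold change -0.41 ± 0.08, edgeR adjusted p = 0.0198). Flt1 lost its call without 5 µM replicate 1 or DMSO replicate 4, and Cdh5 without 5 µM replicate 1, 5 µM replicate 3 or DMSO replicate 1.

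The other members mostly lay below DMSO at 24 h without passing the test. Of the 31, 27 had a log2 fold change below 0, and the median was -0.24 against 0.00 over all genes tested. Sox7 (-0.45 ± 0.11, adjusted p = 0.0508) and Icam2 (-0.53 ± 0.14, adjusted p = 0.0759) had separate groups but missed the threshold in edgeR. With Flt1 and Cdh5 these made 4 members with separate groups, all lower, where 2.0% of all genes were lower and 1.56% higher in this way. Esm1 went the other way at 0.72 ± 0.20 (edgeR adjusted p = 0.101). DESeq2 called 7 members (1 higher, 6 lower), and leaving out single libraries gave 0 (without 5 µM replicate 1) to 4 (without 5 µM replicate 5) calls in edgeR. The share of all genes called in these alternatives is not given here. In the same libraries 4 of 18 tested macrophage genes (189 to 247 CPM summed in DMSO, 118 to 190 at 5 µM) and 10 of 15 skeletal muscle genes were lower.

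At 1 µM no member was called at 24 h by edgeR or DESeq2, where edgeR called 0.00608% of 16439 genes, and 2 members had an unadjusted p under 0.05, with a median of -0.07. All 31 overlapped DMSO, while 0.249% of all genes were higher and 0.207% lower without overlap. Set against 1 µM directly, 5 µM gave 2 called members (1.19% of 16496 genes were called, 0.242% higher and 0.946% lower), Cdh5 lower at -0.38 ± 0.07 (edgeR adjusted p = 0.00947) and Esm1 higher at 0.71 ± 0.16 (edgeR adjusted p = 0.0371). Esm1 stood at 7.86, 7.72, 6.37, 8.03 and 6.08 CPM at 1 µM and at 12.3, 12.7, 8.30, 15.7 and 10.4 at 5 µM. Its groups did not overlap, as for 1 higher and 3 lower members in all (1.17% and 1.79% of all genes), but the call was lost in 8 of 10 fits without 1 library, and such fits called 1 to 3 members. Comparisons of 5 µM with DMSO and with 1 µM share the 5 µM libraries.

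After 48 h at 5 µM, 9 of 31 members were lower and none was higher, where 7.16% of 16345 genes tested were called and 4.42% were called lower. The median log2 fold change was -0.33 over the members and 0.00 over all genes tested, and 25 of 31 lay below 0. The called genes were Cdh5, Pecam1 and Esam of the junctions, the VEGF receptor Flt1, the apelin receptor Aplnr, the surface genes Clec14a and Ecscr, and the secreted Mmrn2 and Vwf. The groups were separate for 6 of them, and 3.88% of all genes were lower and 3.59% higher in this way.

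Cdh5 had the smallest p. It stood at 86.3, 88.1, 89.7, 98.5 and 83.2 CPM in DMSO and at 58.6, 53.1, 75.7, 70.5 and 58.5 at 5 µM, with every treated library below every DMSO library. The fall was 1.43-fold (log2 fold change -0.51 ± 0.08, edgeR adjusted p = 0.000735). Pecam1 stood at 52.0, 64.8, 60.2, 70.3 and 57.6 CPM in DMSO and at 40.0, 42.0, 56.9, 50.6 and 47.3 at 5 µM, with 1 treated library inside the DMSO range (log2 fold change -0.38 ± 0.10, edgeR adjusted p = 0.0199). Esam, an endothelial adhesion molecule of tight junctions, stood at 19.6, 23.6, 20.1, 22.9 and 22.8 CPM in DMSO and at 17.5, 16.9, 20.6, 15.2 and 17.3 at 5 µM, again with 1 treated library inside the DMSO range (log2 fold change -0.34 ± 0.10, edgeR adjusted p = 0.0417). Cldn5 (-0.37 ± 0.12, adjusted p = 0.0615) and Icam2 (-0.47 ± 0.14, adjusted p = 0.0537) missed the threshold in edgeR.

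Of the receptors, Flt1 and Aplnr were lower. Flt1 stood at 13.4, 13.7, 14.0, 12.8 and 11.8 CPM in DMSO and at 10.4, 7.30, 10.8, 10.2 and 10.3 at 5 µM, with no overlap (log2 fold change -0.44 ± 0.12, edgeR adjusted p = 0.0301). Gene-level counts do not separate its membrane and soluble forms. Kdr was not called at -0.31 ± 0.10 (edgeR adjusted p = 0.0883), nor were Flt4 (-0.24 ± 0.14), Tek (-0.34 ± 0.18) and Tie1 (-0.23 ± 0.08). Aplnr, already low after 48 h in DMSO at 4.45, 6.35, 7.51, 5.91 and 4.91 CPM, stood at 2.94, 3.50, 4.20, 2.94 and 3.79 at 5 µM, below all DMSO libraries (log2 fold change -0.76 ± 0.19, edgeR adjusted p = 0.0175). Its ligand Apln differed by -0.16 ± 0.14, with a 95% interval of -0.44 to 0.12.

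Surface and secreted members followed. Ecscr, a small membrane protein of endothelial chemotaxis and apoptosis, stood at 7.87, 9.43, 9.75, 8.86 and 8.95 CPM in DMSO and at 6.17, 5.97, 5.92, 5.57 and 4.70 at 5 µM, with a wide gap between the groups (log2 fold change -0.68 ± 0.13, edgeR adjusted p = 0.00279). Clec14a, a lectin-like receptor of sprouting vessels, stood at 27.2, 25.0, 28.6, 31.5 and 27.8 CPM and 22.01, 18.8, 24.5, 23.6 and 22.9 (log2 fold change -0.34 ± 0.09, edgeR adjusted p = 0.0249). Mmrn2, which binds Clec14a protein, stood at 16.1, 21.1, 18.9, 19.6 and 16.6 CPM and 13.9, 13.1, 14.7, 15.9 and 11.5 (log2 fold change -0.43 ± 0.11, edgeR adjusted p = 0.0219). The groups of these 3 genes did not overlap. Vwf was scarce, with 39 to 97 reads per DMSO library and 21 to 47 per 5 µM library. Its log2 fold change was -0.83 ± 0.24 (edgeR adjusted p = 0.0456), with overlapping groups.

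The members that were not below DMSO at 48 h were Eng (0.14 ± 0.11), Plvap (0.05 ± 0.14), Emcn (0.12 ± 0.12), Ramp2 (0.13 ± 0.10), Myct1 (0.13 ± 0.19) and Esm1 (0.34 ± 0.17), none of them called. The 95% interval of Plvap ran from -0.22 to 0.31, so a change of the size seen in Cdh5 lies outside it. Of the 5 yardstick genes, 4 (Cdh5, Pecam1, Esam and Clec14a) were themselves lower here, so the yardstick fell with them. Against it Esm1 stood 0.71 higher on the log2 scale, Eng and Ramp2 0.50, Emcn 0.49, Myct1 0.47 and Plvap 0.40, while Vwf (-0.49), Aplnr (-0.38) and Ecscr (-0.31) stood lower, without a test. Against the median of the members at 2 CPM or more these shifts were 0.64 for Esm1, 0.32 for Eng, 0.33 for Ramp2, 0.33 for Emcn, 0.31 for Myct1, 0.25 for Plvap, -0.65 for Vwf, -0.54 for Aplnr and -0.48 for Ecscr. The Sox genes Sox7, Sox17 and Sox18, as well as Nos3, the endothelial nitric oxide synthase, lay between -0.36 and -0.21 and were not called.

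**Figure D3:**
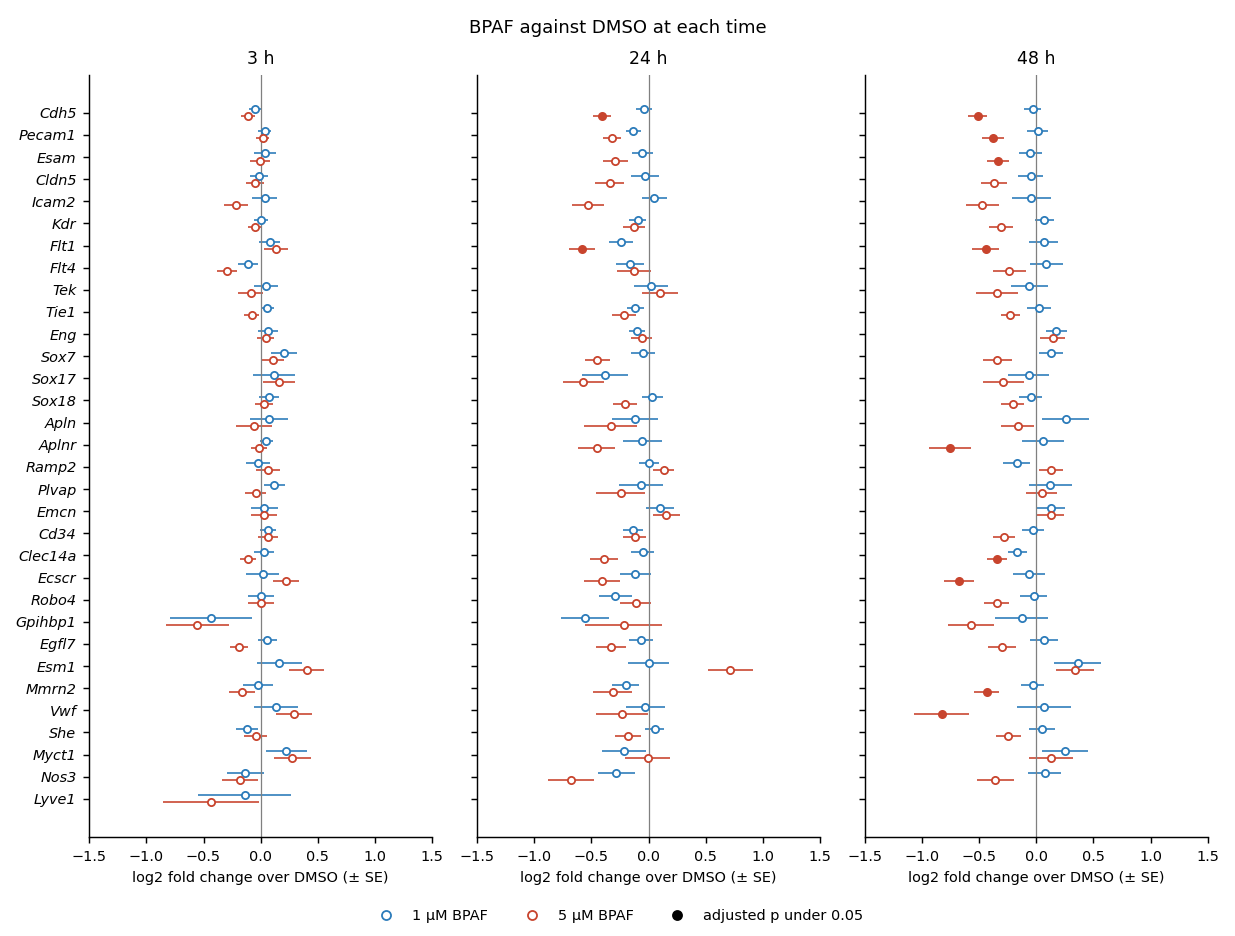
Points give the log2 fold change of each endothelial gene over DMSO at the same time (x axis, whiskers are 1 SE) for 1 µM (blue) and 5 µM (red) in panels for 3, 24 and 48 h. Filled points passed an adjusted p under 0.05, 2 members at 24 h and 9 at 48 h, all at 5 µM and all below 0.

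Some calls at 48 h rested on few libraries. Leaving out single libraries gave 3 to 11 called members, with 3 left without 5 µM replicate 5, 4 without 5 µM replicate 1, 5 µM replicate 2 or DMSO replicate 4, and 5 without DMSO replicate 2. Vwf lost its call in 8 of 10 such fits, Esam in 7, Flt1 and Clec14a in 6, Pecam1 in 4, Mmrn2 in 3 and Aplnr in 2, while Cdh5 and Ecscr kept it in all 10.

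At 1 µM no member was called after 48 h by edgeR or DESeq2, no gene of the 16479 tested was called in edgeR, and 0 members had an unadjusted p under 0.05. The members' median was 0.02. For Cdh5 the difference was -0.03 ± 0.07, with a 95% interval of -0.17 to 0.11. The intervals were -0.17 to 0.19 for Pecam1, -0.18 to 0.31 for Flt1, -0.30 to 0.42 for Aplnr and -0.34 to 0.21 for Ecscr. The comparisons of 1 and 5 µM share the DMSO libraries. Libraries of 1 µM and DMSO overlapped for all 31 members tested, while 0.267% of all genes were higher and 0.376% lower without overlap.

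Set against 1 µM at 48 h, 5 µM gave 8 lower members and none higher (5.96% of 16349 genes called, 3.77% lower). Of these, 6 were also called against DMSO, namely Cdh5, Pecam1, Flt1, Aplnr, Ecscr and Mmrn2, which is 6 of 8 here and 6 of 9 there, with the 5 µM libraries shared. Cdh5 stood at 82.4, 85.7, 81.8, 104 and 82.3 CPM at 1 µM, above every 5 µM library (log2 fold change -0.48 ± 0.09, edgeR adjusted p = 0.00364). Egfl7 stood at 22.4, 20.7, 18.4, 21.7 and 19.2 CPM at 1 µM and at 14.98, 16.9, 17.2, 15.9 and 15.5 at 5 µM, with no overlap (log2 fold change -0.36 ± 0.09, edgeR adjusted p = 0.0170). Sox7 stood at 17.4, 21.0, 16.9, 21.0 and 16.9 CPM at 1 µM and at 12.7, 11.4, 12.4, 17.4 and 14.2 at 5 µM (log2 fold change -0.47 ± 0.12, edgeR adjusted p = 0.0271). The remaining differences were -0.81 ± 0.19 for Aplnr, -0.61 ± 0.15 for Ecscr, -0.39 ± 0.10 for Pecam1, -0.40 ± 0.11 for Mmrn2 and -0.50 ± 0.14 for Flt1. The groups were separate for 5 of the 8 (3.6% of all genes were lower and 2.98% higher in this way). The median over the members was -0.32. Leaving out single libraries gave 2 (without 1 µM replicate 4) to 9 called members, 3 without 5 µM replicate 1 or 5, and Flt1 lost its call in 8 of those 10 fits.

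Whether the 5 µM effect itself changed with time was tested as a difference of differences over 20 libraries. Between 24 and 3 h it differed for Flt1 (-0.71 ± 0.15, edgeR adjusted p = 0.0417), from 0.13 ± 0.11 at 3 h to -0.58 ± 0.11 at 24 h, where 0.336% of 17535 genes were called, 0.274% more negative. This call was lost in 12 of 20 fits without 1 library. Between 48 and 3 h it differed for Aplnr (-0.72 ± 0.17, adjusted p = 0.0131), Ecscr (-0.89 ± 0.16, adjusted p = 0.00108) and Vwf (-1.10 ± 0.28, adjusted p = 0.0240) in edgeR, where 2.8% of 17558 genes were called, 2.04% more negative. The call of Vwf was lost in 6 of 20 fits without 1 library, and those of Aplnr and Ecscr in none. In 1 fit over all 45 libraries Aplnr (adjusted p = 0.0612) and Vwf (adjusted p = 0.0559) were not called by edgeR, and Vwf also lost its call under the Y-linked covariate. Between 48 and 24 h no member was called in edgeR or DESeq2 (0 had an unadjusted p under 0.05), where 0.0693% of 17315 genes were called. For 1 µM no difference between times was called in any member by edgeR or DESeq2 (1, 1 and 0 members at an unadjusted p under 0.05).

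Genes of the vessel wall and of vessel identity outside the 32 were read from lists chosen for this purpose. Genes of arteries and of Notch signalling, which sets arterial identity, were lower for 5 of 15 and higher for 1 at 5 µM and 48 h. In that comparison 7.16% of all genes tested were called, 4.42% lower. Gja5, the arterial gap junction protein connexin 40, was 75.7 ± 14.1 CPM in DMSO and 43.5 ± 5.14 at 5 µM (SD, n = 5, log2 fold change -0.82 ± 0.11, edgeR adjusted p = 0.000145). In DMSO, Gja5 averaged 25.4 CPM at 3 h and 55.4 at 24 h, while Cdh5 averaged 109 and 74.9. Summed skeletal muscle genes averaged 1816, 4779 and 6450 CPM in DMSO at 3, 24 and 48 h, and 3112 at 5 µM and 48 h. Which cells made the Gja5 RNA, and the part of muscle in it, were not tested. Jag2, a Notch ligand that limb ectoderm also expresses, differed by -0.66 ± 0.08 (edgeR adjusted p = 4.57e-05) and Heyl, a Notch target, by -0.88 ± 0.13 (edgeR adjusted p = 0.000309), and the groups of all 3 were separate. Heyl was already lower at 24 h (-0.54 ± 0.13, edgeR adjusted p = 0.0465), the only gene of the list called then, where 1.57% of all genes tested were called.

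Pericytes and smooth muscle cells cover vessels from outside. At 5 µM and 48 h 6 of 15 tested genes of these cells were lower and none higher, where 4.42% of all genes tested were called lower. Their summed level was 1188 to 1351 CPM in DMSO and 1096 to 1192 at 5 µM. Rgs5, a regulator of G-protein signalling in pericytes, was 13.6 ± 0.876 CPM in DMSO and 4.07 ± 1.10 at 5 µM (log2 fold change -1.77 ± 0.16, edgeR adjusted p = 2.36e-06). Abcc9, a subunit of the pericyte potassium channel, differed by -1.21 ± 0.12 (edgeR adjusted p = 5.42e-06). Acta2, smooth muscle actin, which early skeletal muscle also expresses, differed by -0.95 ± 0.11 at 48 h (edgeR adjusted p = 2.23e-05) and by -0.83 ± 0.10 at 24 h (edgeR adjusted p = 0.000823). The 5 µM effect on Rgs5 was more negative at 48 than at 24 h by -1.26 ± 0.23 (edgeR adjusted p = 0.0275). Cspg4 (420 ± 19.6 CPM in DMSO, 475 ± 37.1 at 5 µM, SD) and Mcam (127 ± 7.08 and 135 ± 3.36) were higher on average at 48 h without being called. Skeletal muscle genes were lower in the same 5 µM libraries, and their part in the values of this list was not tested. At 1 µM none of the 15 genes was called at 48 h in edgeR.

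**Figure D4:**
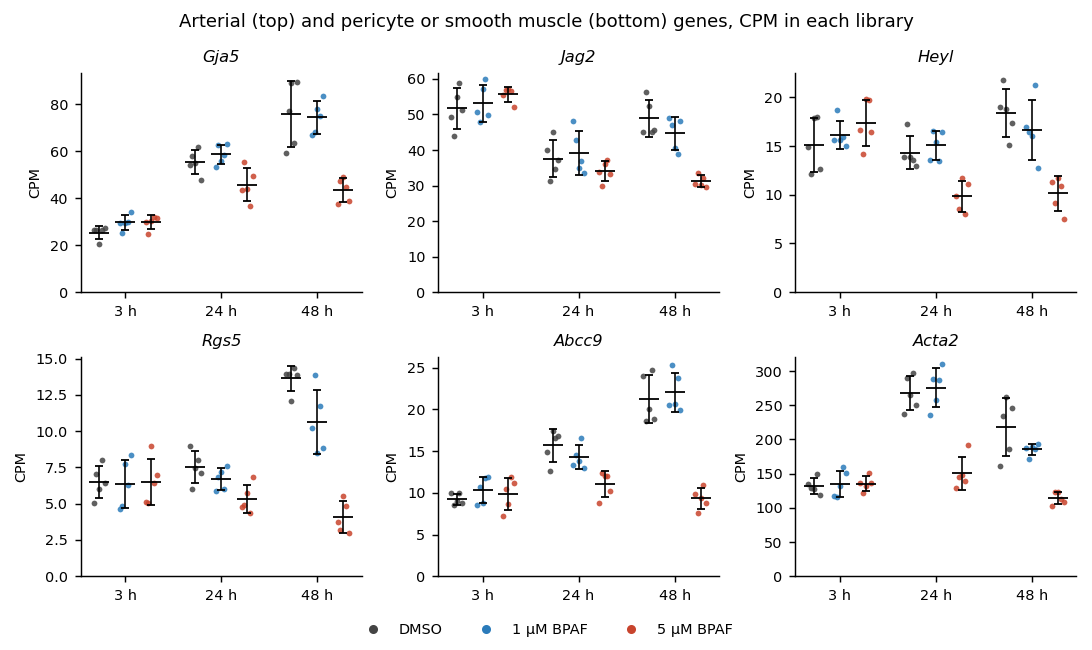
Each point is the CPM of 1 library by time (x axis) and dose (colour), with group mean and SD, n = 5. Gja5, Jag2 and Heyl are from the arterial and Notch list, and Rgs5, Abcc9 and Acta2 from the pericyte and smooth muscle list. At 48 h the 5 µM libraries lie below all DMSO libraries for each of the 6 genes.

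Other vessel lists moved little or in both directions at 5 µM and 48 h, where 7.16% of all genes tested were called, 4.42% lower. Of 18 endothelial transcription factors Foxc1 was higher (0.25 ± 0.06) and Prox1, the lymphatic master regulator that muscle precursors also express (-0.78 ± 0.19), and Bcl6b (-0.42 ± 0.10) were lower. Of 11 tested VEGF and angiopoietin ligands and co-receptors 2 were higher, Angpt2, an antagonist of Tek (0.50 ± 0.11, edgeR adjusted p = 0.00964), and Svep1, an extracellular matrix protein (0.42 ± 0.08, edgeR adjusted p = 0.00253). Of 38 further endothelial genes 4 were lower and 1 higher, the lower ones including Palmd (-0.81 ± 0.10), Rasgrp2 (-0.76 ± 0.15) and the scavenger receptor Stab1 (-0.60 ± 0.12). Macrophage genes were lower in the same libraries, and their part in the Stab1 value was not tested. Of 7 venous and lymphatic genes Ccbe1, which helps to activate VEGF-C, was higher (0.46 ± 0.11) and Prox1, also in this list, lower. None of 10 genes of BMP9 and S1P signalling was called by edgeR at that time.

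Markers of some other cells differed at 5 µM as well, and at 48 h 7.16% of all genes tested were called, 4.42% lower. At 48 h, 11 of 19 tested macrophage genes were lower, with a summed level of 304 to 390 CPM in DMSO and 194 to 232 at 5 µM, and 15 of 16 skeletal muscle genes were lower (5202 to 8152 CPM in DMSO, 2863 to 3461 at 5 µM). Of 11 tested erythroid genes 2 were lower, with summed levels of 559 to 884 CPM in DMSO and 425 to 654 at 5 µM. Gata1 was at 0 in all 5 µM libraries and also in all 1 µM libraries of that time. Limb mesenchyme genes had 0 of 11 called in edgeR (1975 to 2199 CPM in DMSO, 2137 to 2319 at 5 µM). Haemoglobin transcripts made up 0.0684% ± 0.0148 of reads in DMSO and 0.0540% ± 0.00843 at 5 µM (SD, n = 5), with overlapping ranges. With the haemoglobin share as a covariate 2 of the 9 endothelial calls were left, those of Cdh5 and Ecscr. Log2 fold changes under that covariate (main fit in brackets) were -0.71 (-0.76) for Aplnr, -0.49 (-0.44) for Flt1 and -0.41 (-0.43) for Mmrn2. They were -0.31 (-0.34) for Clec14a and -0.97 (-0.83) for Vwf. Pecam1 at -0.24 (-0.38) and Esam at -0.25 (-0.34) moved towards 0. The part of blood content in these values was not tested. Platelet genes, which could add to Vwf, summed to 5.45 to 7.84 CPM in DMSO and 5.66 to 7.26 at 5 µM, with 0 of 3 tested called in edgeR. Hypoxia response genes, several of which are induced by low oxygen together with VEGF, had 8 of 20 lower (2087 to 3053 CPM in DMSO, 1891 to 2096 at 5 µM). Of the remaining lists, 2 of 12 epidermal genes were lower (412 to 792 CPM in DMSO, 313 to 868 at 5 µM), and 0 of 15 chondrocyte genes were called in edgeR. Of 8 Schwann and neural crest genes 1 was lower, and their summed level was 97.2 to 106 CPM in DMSO and 80.2 to 85.05 at 5 µM, without overlap and with none of the genes at 0. The part of macrophage, muscle, Schwann and hypoxia genes in the endothelial values was not tested.

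**Figure D5:**
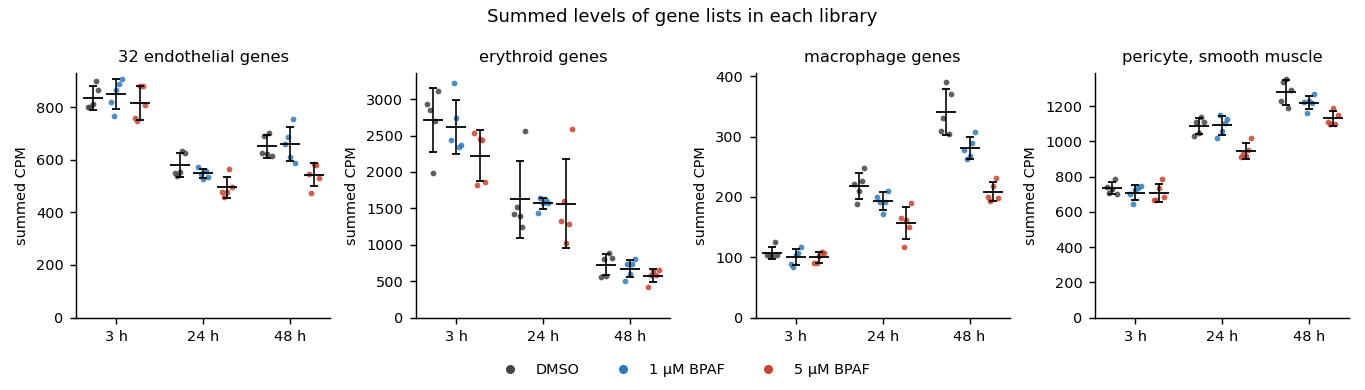
Each point is the summed CPM of a gene list in 1 library, for the 32 endothelial genes, erythroid genes, macrophage genes and pericyte or smooth muscle genes, by time (x axis) and dose (colour), with group mean and SD, n = 5. The endothelial sum is 801 to 902 CPM in DMSO at 3 h, 537 to 634 at 24 h and 613 to 704 at 48 h, and 473 to 583 at 5 µM and 48 h.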

How the data were processed

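RNA sequencing libraries from cultured CD1 mouse forelimb buds (3 treatments, 3 times, 5 libraries each) were read from 9 deposited comparison tables, which the authors made with 6 kinds of value. The authors' raw read counts per gene were used for all tests. Deposited signal columns (counts divided by a size factor), FPKM values, log2 fold changes and p-values were only inspected, and the deposited gene length gave the per-kilobase levels. The submitters' processing notes name CASAVA 1.8, STAR 2.5, HTSeq 0.6.1, DESeq2 and build mm10, with no strand setting, so overlapping and antisense genes cannot be separated. The tables joined to 35272 genes without conflicting counts, and a gene missing from a table was read as 0 (11.7% of gene and library pairs). Library totals had a median of 17820524 reads. Libraries of a group differed by more than sampling noise (chi-square per gene of at least 4.39 for every pair of libraries of a group), so none was counted as a duplicate.

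Comparisons were fitted on all genes with edgeR 4.0.16 (R 4.3.3) by the quasi-likelihood F test with TMM scaling, on the libraries of the compared groups, after a filter on low counts (minimum count 10, minimum total 15), with Benjamini-Hochberg adjustment over all genes tested and a threshold of 0.05. There were 12 comparisons between groups and 6 of effects between times. The SE of a log2 fold change came from the F statistic, and 95% intervals from the SE. The scripts were tested on simulated data. Alternatives were DESeq2 1.42.0, DESeq2 size factors in edgeR, no filter, 1 fit over all 45 libraries, the replicate number as a block, Y-linked and haemoglobin covariates, and leaving out each library. Replicate numbers were taken to pair libraries only for 1 µM and DMSO at 24 h, where all 5 same-number correlations of deviations were over 0.1 (lowest 0.114, median 0.119).

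Values in each library were given for up to 8 called members with the smallest adjusted p in a comparison, or, with none called, for the 3 of highest mean CPM, and up to 3 called genes were named for each other vessel list. Some further members were described because they stood out. The members and lists were chosen with earlier results of these data known.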

Additional observations from a re-analysis of the deposited data

Results flagged for a closer look

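In 15 of the 288 combinations of member and group, 1 of the 5 libraries stood apart from the rest by more than the 95% critical value of Dixon's test (0.71 of the range). Chance gives this in about 1 in 20 groups. Replicate 4 of the 1 µM 48 h group was high for 3 members, with 103.7 CPM for Cdh5 (the next library had 85.7), 53.5 for Tie1 and 11.6 for Ecscr. Replicate 3 of the 5 µM 3 h group was high for Egfl7 (28.7 CPM) and Nos3 (9.77 CPM). Replicate 5 of the DMSO 48 h group was low for Plvap (6.80 CPM) and Robo4 (10.4 CPM). In the 5 µM 48 h group, replicate 2 was low for Flt1 (7.30 CPM), whose call in that comparison was lost without it, and replicate 5 was low for Flt4 (7.15 CPM). Single high libraries were Cldn5 in DMSO 48 h replicate 2 (26.8 CPM), Plvap in 1 µM 24 h replicate 4 (10.1 CPM), Emcn in DMSO 3 h replicate 4 (27.1 CPM) and She in 5 µM 24 h replicate 4 (18.1 CPM). Single low libraries were Kdr in DMSO 3 h replicate 1 (52.1 CPM) and Eng in DMSO 24 h replicate 4 (32.1 CPM).

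The effect of 5 µM differed between times for 4 members in edgeR's test of the difference itself. For Flt1 it was more negative at 24 than at 3 h by a log2 value of -0.71. Between 48 and 3 h the differences were -0.72 for Aplnr, -0.89 for Ecscr and -1.10 for Vwf.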

How the results depend on the processing

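No member changed direction past the threshold under any alternative that was run. Between 24 and 48 h in DMSO, the Y-linked covariate left 2 of 7 calls, and leaving out 1 library gave 3 to 7. For 5 µM against DMSO at 24 h, the 2 calls became 7 with DESeq2, 8 with all 45 libraries in 1 fit, 10 with the replicate number as a block, 5 with the Y-linked covariate, 4 with the haemoglobin covariate, 4 without replicate 5 of both groups and 0 to 4 without 1 library. For 5 µM against DMSO at 48 h, the 9 calls became 14 with the replicate block, 2 with the haemoglobin covariate and 3 to 11 without 1 library. For 5 against 1 µM, 2 calls at 24 h became 1 to 3 without 1 library, and 8 calls at 48 h became 1 with the haemoglobin covariate and 2 to 9 without 1 library. For the change of the 5 µM effect, 1 call between 24 and 3 h became 2 with DESeq2, 0 with the Y-linked covariate and 0 to 1 without 1 library, and 3 calls between 48 and 3 h became 5 with DESeq2, 6 with the replicate block and 2 to 5 without 1 library. The cause was not tested. The share of all genes called under each alternative is not given beside these counts. They describe only how the calls depend on the settings. The block left 0 calls for 1 µM against DMSO at 24 h, where the numbers paired the libraries. Elsewhere at least 1 same-number correlation was 0.1 or less. As a hint from the data, all 5 libraries correlated best with their own number for 1 µM against DMSO and 5 against 1 µM at 3 h (medians 0.135 and 0.162), and 4 of 5 for 5 µM against DMSO at 48 h (median 0.136). Low counts of Lyve1 and Vwf limit what can be seen for these genes.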

Other observations

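In DMSO limbs, vessel genes outside the 32 went both ways between 3 and 24 h, where 19.1% of all genes tested were called higher and 18.7% lower. Of 15 arterial and Notch genes 6 rose and 3 fell in edgeR, among them the Notch ligand Jag2, lower (-0.46 ± 0.10 on the log2 scale), and Gja5, the arterial connexin 40 (1.12 ± 0.09), the chemokine receptor Cxcr4 (0.94 ± 0.10) and the arterial ephrin Efnb2 (0.40 ± 0.06), these 3 higher. Between 24 and 48 h 9 of the 15 rose and none fell (9.71% of all genes were called higher and 6.57% lower), among them the netrin receptor Unc5b (0.31 ± 0.06), Notch4 (0.39 ± 0.07) and Cxcr4 again (0.47 ± 0.10). Of 7 venous and lymphatic genes 1 rose and 2 fell between 3 and 24 h, a share near the 37.8% called over all genes, with the venous regulator Nr2f2 at -0.26 ± 0.06 and the lymphatic regulator Prox1 at -0.69 ± 0.14. Nr2f2 fell further between 24 and 48 h (-0.68 ± 0.07). Which cells made the RNA of these genes was not tested.

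Of 18 endothelial transcription factors 5 rose and 6 fell between 3 and 24 h in edgeR. Gata2, a regulator of endothelial and blood genes, fell by 1.65 on the log2 scale, and Foxc2, a regulator of lymphatic valves that limb mesenchyme also expresses, rose (1.04 ± 0.08). Klf2 (0.81 ± 0.09) and Klf4 (0.59 ± 0.05), which shear stress is known to induce, were higher at 48 than at 24 h. These are whole-limb values, and which cells made this RNA and any part of flow were not tested. Of 15 pericyte and smooth muscle genes 7 rose in DMSO between 3 and 24 h with none lower, among them Cspg4 (0.97 ± 0.06), Des (0.98 ± 0.07) and Acta2 (1.02 ± 0.07). The pericyte gene Rgs5 overlapped between these times, at 5.08 to 8.01 and 6.02 to 8.98 CPM. Skeletal muscle genes rose over the same step, from a summed 1548 to 2033 CPM to 4395 to 5104. The part of muscle and other cells in these values was not tested. Of 10 genes of BMP9 and S1P signalling 5 fell and 2 rose between 3 and 24 h, with the BMP target genes Id1 (-0.41 ± 0.06) and Id3 (-0.71 ± 0.07) both lower. Id1 was the only gene of the vessel lists called at 5 µM after 3 h (0.31 ± 0.05, higher). At 5 µM after 24 h, the scavenger receptor Stab1 (-0.60 ± 0.10), Palmd (-0.49 ± 0.08) and Mmrn1 (-0.71 ± 0.16) were the 3 called among 38 further endothelial genes, all lower. In that comparison 1.57% of all genes tested were called, 1.1% lower. Summed macrophage genes were 189 to 247 CPM in DMSO and 118 to 190 at 5 µM, and their part in the Stab1 value was not tested.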
